A study of Mus musculus with 8 samples.

Results

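The genes described here mark Langerhans cells or serve their role as antigen presenting cells of the epidermis. They are 10 genes chosen by name, out of 49315 genes in the count files: langerin (Cd207), the MHC class II chains H2-Aa, H2-Ab1 and H2-Eb1, the invariant chain Cd74, the class II transactivator Ciita, the costimulatory and activation genes Cd86 and Cd83, the adhesion gene Epcam and the growth factor receptor gene Csf1r. All 10 had enough counts to be tested. RNA was sequenced from epidermis isolated from back skin of mice, 5 libraries labelled Tgfa KO and 3 labelled WT, all at 22 months of age and all with keratinocytes given as the cell type. Tgfa encodes TGF alpha, which activates the EGF receptor, and the series asks what its loss does to hair follicles with age. The labels give neither the structure of the Tgfa allele, nor the strain, nor whether it was deleted in all cells.

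Langerhans cells are dendritic cells that sit among keratinocytes and reach through the epidermal barrier to take up antigen. MHC class II molecules are pairs of an alpha and a beta chain that are built around the invariant chain, exchange it for a peptide in endosomes and show that peptide to CD4+ T cells. Ciita switches these genes on through factors that are already bound to their promoters. Cd86 then gives T cells a second signal through CD28, and Cd83 is a surface protein that appears as dendritic cells mature and keeps class II and Cd86 at the cell surface.

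Total counts ranged from 5313552 in KO replicate 2 to 18292303 in WT replicate 1. Levels below are TMM-scaled CPM, that is, reads of a gene relative to the adjusted size of its library. Tgfa itself was 131.7, 34.4, 43.3, 36.2 and 70.1 CPM in KO replicates 1 to 5, against 92.5, 85.1 and 112 CPM in WT replicates 1 to 3. The library labelled KO replicate 1 was thus above every WT library, and the other 4 KO libraries lay below every WT library. The log2 fold change of Tgfa was -0.61 (SE 0.43, edgeR adjusted p = 0.899). Tgfa RNA was present in every KO library, and counts per gene do not show which exons a targeted allele lacks. These values therefore do not settle the label of any KO library. Malat1, a nuclear RNA, took 4.88% of counts in KO replicate 1 and 6.61% in WT replicate 3, against 1.34% to 1.84% in the other 6. KO replicate 2 had 0.795 RPKM (CPM per kb of exon) on 1700 odorant and vomeronasal receptor genes, best known from sensory neurons, and the other libraries 0.00823 to 0.144. The names of KO replicates 3 to 5 end in bl and those of the other 5 libraries in br. The labels do not explain this, so results are also given by ending. Keratinocyte markers summed to 14794 to 33392 CPM in KO libraries and 15784 to 29243 CPM in WT libraries, with all 7 present in each. Bulk RNA cannot tell fewer cells of a type from less RNA per cell, which applies to every result below.

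The promoters of class II genes carry a shared set of boxes, shown here for H2-Aa and H2-Eb1. The part of these boxes in the levels of the members was not tested. Reference promoters were available for 4 members (Cd207, H2-Aa, H2-Eb1 and Epcam, from RefSeq on GRCm38.p6). The 200 bases from 210 to 11 before the annotated start are printed in the direction of the gene, for H2-Aa (chr17:34287834-34288033, minus strand), H2-Eb1 (chr17:34305657-34305856, plus strand) and, for comparison, Cd207 (chr6:83677868-83678067, minus strand). Capitals mark CTGATTGG, the letters of the Y box, which contains the inverted CCAAT of factor NF-Y, as well as GCAACT and TGACGTCA, letters found in the X box region upstream of it.
H2-Aa: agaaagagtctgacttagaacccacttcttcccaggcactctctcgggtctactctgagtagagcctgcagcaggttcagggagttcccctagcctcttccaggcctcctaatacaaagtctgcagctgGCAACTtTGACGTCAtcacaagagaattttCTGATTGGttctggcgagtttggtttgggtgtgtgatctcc
H2-Eb1: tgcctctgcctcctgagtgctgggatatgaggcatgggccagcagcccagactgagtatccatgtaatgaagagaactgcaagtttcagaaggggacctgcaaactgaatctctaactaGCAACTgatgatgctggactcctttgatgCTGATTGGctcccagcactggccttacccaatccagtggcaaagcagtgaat
Cd207: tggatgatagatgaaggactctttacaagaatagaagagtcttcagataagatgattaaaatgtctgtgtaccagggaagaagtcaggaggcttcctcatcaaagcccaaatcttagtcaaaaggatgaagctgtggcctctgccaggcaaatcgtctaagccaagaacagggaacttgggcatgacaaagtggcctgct

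CTGATTGG began 51 bases before the start of H2-Aa and 62 bases before that of H2-Eb1, with GCAACT beginning 81 and 91 bases before it. TGACGTCA, which reads the same on both strands, began 74 bases before the start of H2-Aa. Over the 250 bases before each start, on either strand, 3.83% of 32851 mouse promoters held CTGATTGG, 9.01% held GCAACT and 1.55% held TGACGTCA. The shorter core ATTGG, part of CTGATTGG, was held by 33.8%. None of these letters occurred in the same window of Cd207 or Epcam, which says nothing of which factors bind there.

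Langerin mRNA was lower in most KO libraries. Cd207 (ENSMUSG00000034783, chromosome 6, 83671215 to 83677857, GRCm38), which encodes the lectin that forms the Birbeck granules of Langerhans cells, had 29.5, 21.9, 12.4, 19.3 and 9.39 CPM in KO replicates 1 to 5, against 27.8, 34.9 and 37.0 CPM in WT replicates 1 to 3. The groups overlapped through the library labelled KO replicate 1 alone, and 4 of 5 KO libraries lay below every WT library. The counts behind these values were 126 to 400 in KO and 473 to 527 in WT. The mean was 18.5 ± 7.94 CPM in KO (SD, n = 5) and 33.2 ± 4.82 CPM in WT (n = 3), a log2 fold change of -0.85 (SE 0.34, 95% interval -1.61 to -0.08). Over all 19239 genes tested this did not pass, with an edgeR adjusted p of 0.716, and the exact permutation p was 0.0714.

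The 3 class II chain genes lie together on chromosome 17, H2-Ab1 at 34263209 to 34269418, H2-Aa at 34282744 to 34287827 and H2-Eb1 at 34305877 to 34316199. H2-Aa, the alpha chain of the I-A molecule, had 253.8, 101.4, 85.6, 102.6 and 51.9 CPM in KO replicates 1 to 5, against 137, 171 and 298 CPM in WT replicates 1 to 3. Its partner H2-Ab1, the I-A beta chain, had 118, 59.7, 63.9, 81.7 and 37.2 CPM in KO, against 97.4, 107 and 123 CPM in WT. The beta chain of I-E, H2-Eb1, had 121, 49.7, 44.2, 52.5 and 24.9 CPM in KO, against 68.5, 96.6 and 155 CPM in WT. In all 3 genes KO replicates 2 to 5 lay below every WT library, while the library labelled KO replicate 1 lay within the WT range.

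Log2 fold changes of the chains were -0.76 (SE 0.47) for H2-Aa, -0.60 (SE 0.33) for H2-Ab1 and -0.87 (SE 0.46) for H2-Eb1. The edgeR adjusted p was 0.871, 0.836 and 0.836, with exact permutation p of 0.161, 0.107 and 0.125. Cd74 (chromosome 18, 60803848 to 60812646), whose product chaperones the chains, was the most abundant member, at 314, 161, 168, 201 and 83.9 CPM in KO replicates 1 to 5, against 246, 276 and 286 CPM in WT. There the library labelled KO replicate 1 was above every WT library and the other 4 KO libraries were below them all (log2 fold change -0.54, SE 0.36, edgeR adjusted p = 0.884). H2-Ea-ps, a pseudogene in the reference for the alpha chain that pairs with H2-Eb1, was looked up after its neighbours were seen and had 0 to 17 counts in KO libraries and 2 to 8 counts in WT libraries, most of them in KO replicate 2.

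Cd86 and Cd83 were the 2 members whose groups did not overlap, with KO lower, as held for 1.75% of all genes tested. Cd86 (chromosome 16, 36603869 to 36666081), the ligand of CD28 and CTLA-4, had 13.6, 18.6, 5.69, 10.9 and 4.31 CPM in KO replicates 1 to 5, against 23.1, 26.0 and 20.9 CPM in WT replicates 1 to 3. Every one of the 5 KO values was below the lowest WT value. The mean was 10.6 ± 5.84 CPM in KO and 23.3 ± 2.57 CPM in WT, or 45.5% of WT, a log2 fold change of -1.15 (SE 0.42) with a 95% interval of -2.09 to -0.20. The adjusted p in edgeR was 0.683, and the exact permutation p was 0.0536.

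Cd83 (chromosome 13, 43785107 to 43803130) had the largest fold among the members. It had 6.34, 5.04, 1.0, 2.51 and 1.46 CPM in KO replicates 1 to 5, from 86, 29, 16, 44 and 21 counts, against 8.84, 7.28 and 23.1 CPM in WT replicates 1 to 3, from 158, 110 and 296 counts. KO replicates 3 to 5 were the lowest, and WT replicate 3 stood well above the other WT libraries. On the log2 scale KO minus WT was -2.02 (SE 0.62), with a 95% interval of -3.40 to -0.63, and -1.33 once WT replicate 3 was left out. The adjusted p in edgeR was 0.58, and the exact permutation p was 0.0357, where 0.0179 is the smallest that 5 against 3 libraries allow. In KO replicate 2 the level was 2.35 RPKM for Cd83 and 5.08 RPKM for Cd86, beside 0.795 RPKM on the receptor genes.

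Epcam, an adhesion molecule of Langerhans cells that some follicle keratinocytes also carry, had 170, 85.8, 78.5, 76.2 and 106 CPM in KO replicates 1 to 5, against 150, 115 and 150 CPM in WT. Its log2 fold change was -0.42 (SE 0.30, edgeR adjusted p = 0.898), with the library labelled KO replicate 1 again the highest of all 8.

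Csf1r (chromosome 18, 61105572 to 61132149) encodes the receptor for IL-34 and CSF-1, on which Langerhans cells depend for survival. It had 27.0, 22.1, 18.3, 31.8 and 11.1 CPM in KO, against 18.8, 18.3 and 21.0 CPM in WT, with KO libraries both above and below the WT range. Its log2 fold change was 0.19 (SE 0.32, edgeR adjusted p = 0.938), and -0.10 without WT replicate 2. Ciita (chromosome 16, 10488178 to 10527564) had 9.80, 17.0, 13, 19.3 and 5.85 CPM in KO, against 14.9, 9.53 and 16.9 CPM in WT. The groups overlapped widely, with a log2 fold change of -0.09 (SE 0.38, interval -0.94 to 0.76) and an edgeR adjusted p of 0.972. Its sign was positive in 5 of the 20 alternative fits. Both genes share exon bases with a gene on the other strand, 871 bases of Csf1r with Hmgxb3 and 111 bases of Ciita with Dexi, and reads there cannot be told apart if counting ignored strand. KO replicate 5 was the lowest of the 8 libraries for Cd207, the 3 class II chains, Cd74, Ciita, Cd86 and Csf1r.

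**Figure D1:**
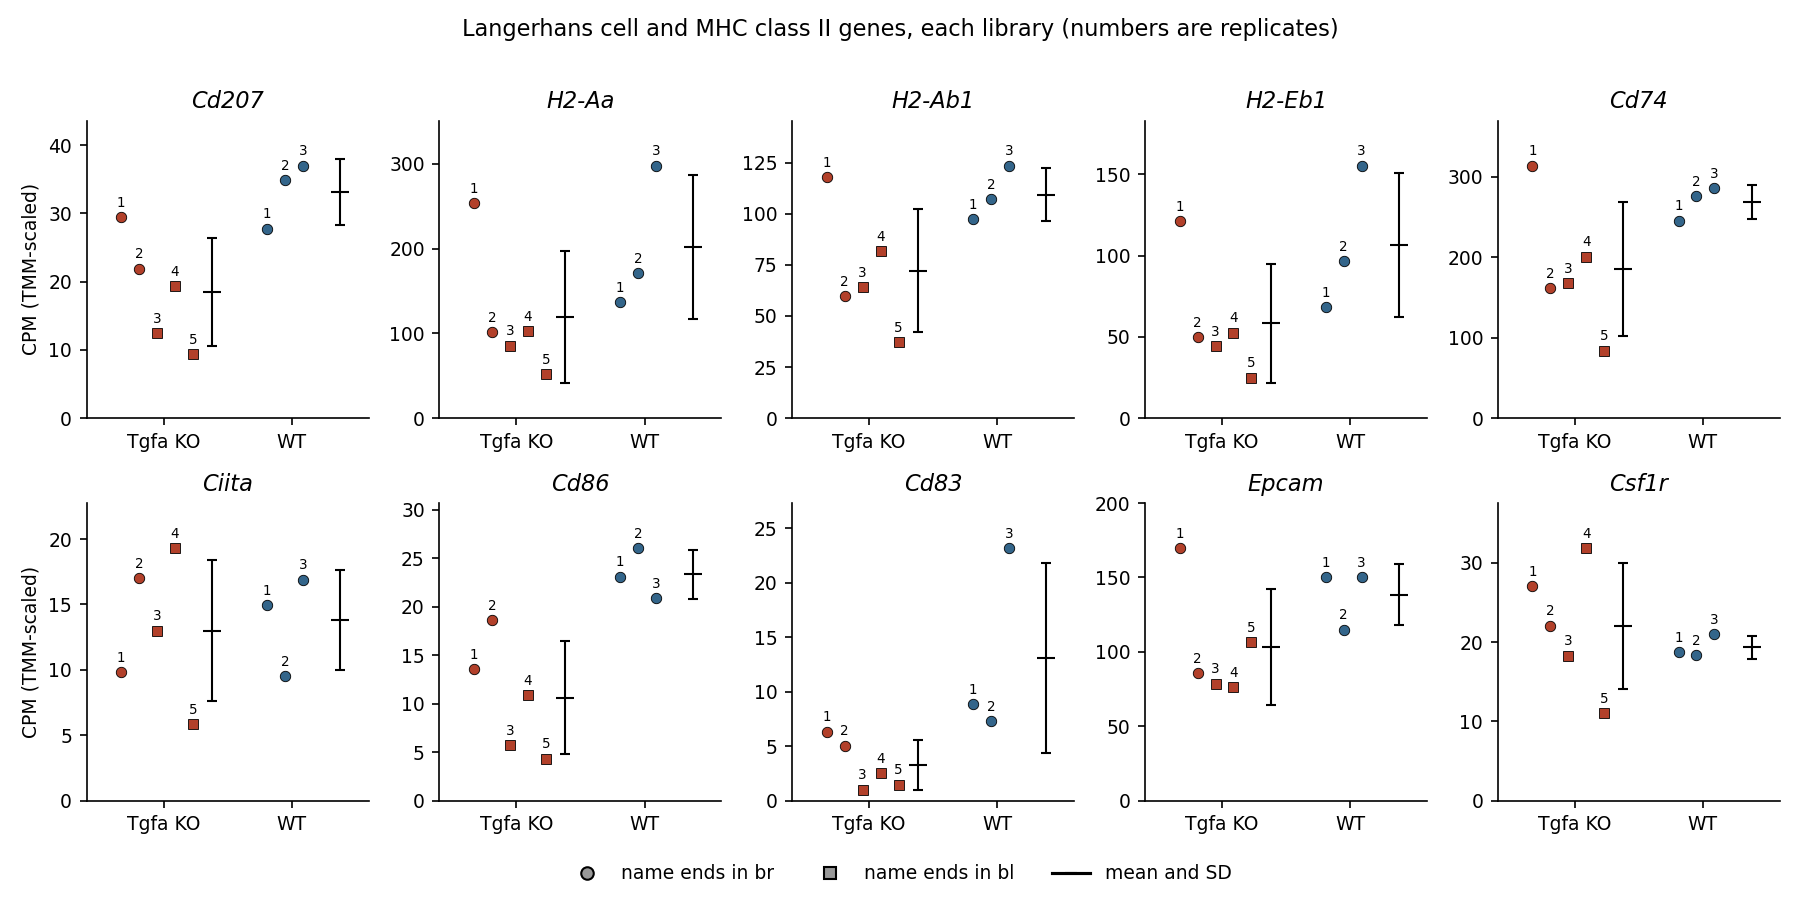
Level of each of the 10 genes in each library (vertical axes, TMM-scaled CPM from 0, one panel per gene, Tgfa KO left and WT right, numbers are replicates, circles end in br and squares in bl, bars are mean and SD). For Cd86 and Cd83 every KO point sits below every WT point, as for 1.75% of all genes tested. KO replicate 1 lies at the WT level for Cd207 and the class II genes.

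Counted together, 9 of the 10 members had a negative log2 fold change and their median was -0.68, where 38.1% of all genes tested were negative and the median of all genes was 0.16. None of the 10 passed the edgeR threshold of an adjusted p under 0.05, where 0% of all genes passed as lower and 0.0052% in either direction. At an unadjusted p under 0.05, 3 members were lower (Cd207, Cd86 and Cd83), where 1.85% of all genes were. All KO libraries lay below all WT libraries for 2 members, where the same held for 1.75% of all genes. DESeq2 called 0 members, where 0.093% of all genes were called lower, and limma voom 0 members and 0 genes. These counts describe a list chosen with earlier results known, and members that come from the same cells are not independent.

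In all, 4 members fell in limma voom with library weights: Cd83 (log2 fold change -2.31, adjusted p = 0.00838), Cd86 (-1.78, adjusted p = 0.00636), Cd207 (-1.18, adjusted p = 0.0192) and H2-Eb1 (-1.06, adjusted p = 0.0444). In this fit 3.07% of all genes were called lower and 6.46% in either direction. It gave weights of 0.28, 0.37 and 0.34 to KO replicate 1, KO replicate 2 and WT replicate 3, and 1.47 to 2.26 to the others. These weights were estimated from the same counts, by how far each library departs from the fit, and use no separate measure of quality. The calls depended on single libraries: 0 members were called with WT replicate 2 left out (0.00858% of all genes called lower), 1 with WT replicate 1 left out (Cd83, 2.44%), 2 with KO replicate 3 left out (Cd83 and Cd86, 0.452%) and 6 with the library labelled KO replicate 1 left out (4.68%). With those 3 low-weight libraries left out of edgeR, Cd83 (-2.30, adjusted p = 0.00754), Cd86 (-1.84, adjusted p = 0.0171) and Cd207 (-1.22, adjusted p = 0.0298) fell, where 5.32% of all genes were called lower. That comparison sets 3 KO libraries ending in bl against 2 WT libraries ending in br, so ending and genotype cannot be told apart in it. The fit with library weights leans the same way. Its weights were 2.25, 2.19 and 1.74 for the KO libraries ending in bl, against 0.28 and 0.37 for those ending in br. Ending and genotype are thus largely mixed in its calls too, here and below.

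**Figure D2:**
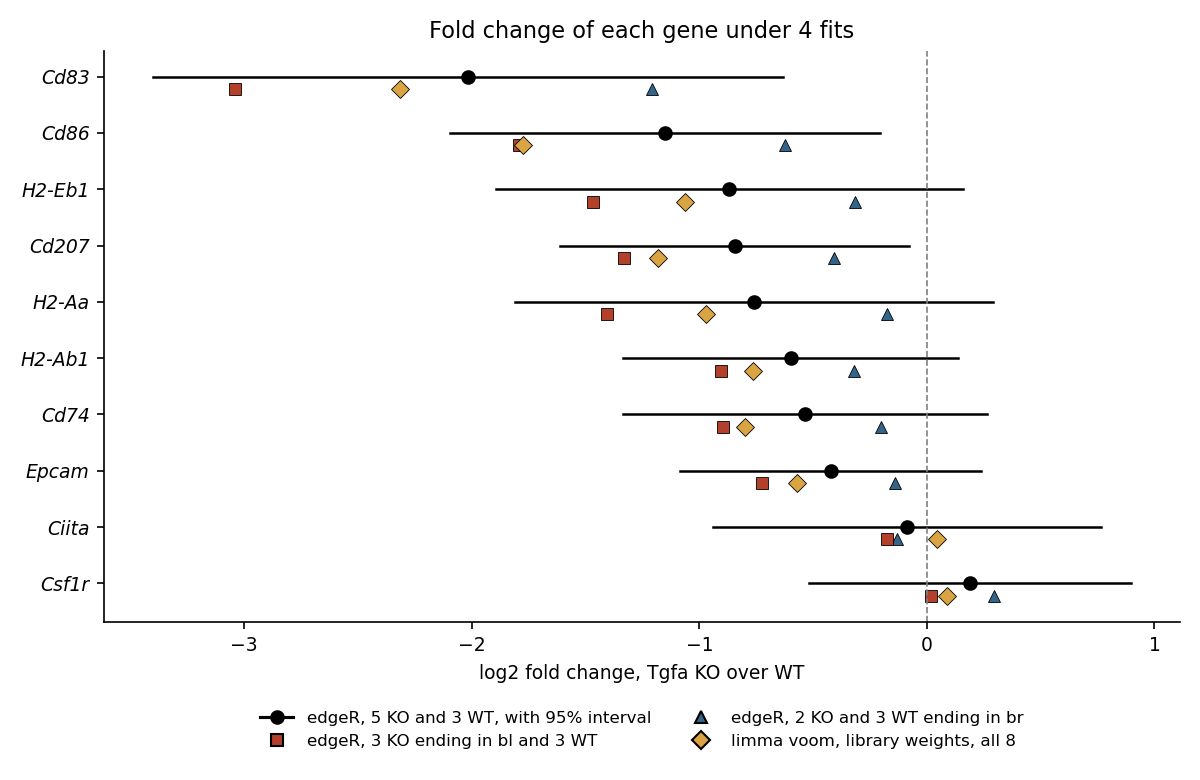
Log2 fold change of each gene, Tgfa KO over WT (horizontal axis), in the edgeR test of all 8 libraries with its 95% interval, in the same test with KO libraries of each name ending, and in limma voom with library weights. For Cd83 the values run from -3.04 with KO libraries ending in bl to -1.21 among libraries ending in br, and 8 of the genes are lower in all of these fits.

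The values of KO against WT differed with the ending of the library name. The 2 KO libraries ending in br are KO replicates 1 and 2. Replicate 1 had a Malat1 share of 4.88% and a Tgfa level above every WT library. Replicate 2 had the fewest counts and 0.795 RPKM on the receptor genes. Within the KO group, ending thus cannot be told apart from these traits. Among libraries ending in br (2 KO, 3 WT), 9 members were still negative, with a median of -0.26, where 37.8% of all genes were negative. There the log2 fold changes were -1.21 for Cd83, -0.63 for Cd86, -0.41 for Cd207 and -0.18 for H2-Aa, with edgeR adjusted p of 0.993 to 0.994. KO libraries ending in bl against the same 3 WT libraries gave -3.04, -1.79, -1.33 and -1.41, with edgeR adjusted p from 0.069 to 0.109, so 0 members were called, where 0.0637% of all genes were called lower. With the ending as a covariate the values were -1.19 for Cd83, -0.54 for Cd86 and -0.37 for Cd207. Every library ending in bl is KO, so that fit too compares genotype among libraries ending in br alone. Within the KO group, libraries ending in bl were lower than those ending in br for all 10 members, with a median log2 fold change of -0.84, where 57.8% of all genes were lower. None of the 10 passed in that edgeR test, in which 0% of all genes passed. At an unadjusted p under 0.05, 5 members were lower in bl (Cd83, Cd86, Cd207, H2-Aa and H2-Eb1), where 11% of all genes were.

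Levels of different genes were compared per length of exon. Cd74 was highest, at 132 ± 59.2 RPKM in KO and 191 ± 14.8 RPKM in WT (SD, n = 5 and n = 3). H2-Aa followed at 63.5 ± 41.7 in KO and 108 ± 45.2 in WT, then Epcam at 50.6 ± 19.1 and 67.9 ± 9.97, H2-Eb1 at 49.4 ± 30.9 and 90.2 ± 37.4, and H2-Ab1 at 44.0 ± 18.4 and 66.8 ± 8.01. The ranges of mean ± SD of these last 4 overlapped within each group, though within libraries H2-Aa was above H2-Ab1 and H2-Eb1 in all 8. Cd207 stood below them, at 12.2 ± 5.22 RPKM in KO and 21.8 ± 3.17 in WT. The remaining members were scarcer, with Csf1r at 4.52 ± 1.64 in KO and 3.96 ± 0.30 in WT, Cd86 at 2.90 ± 1.59 and 6.37 ± 0.70, Ciita at 2.47 ± 1.03 and 2.62 ± 0.73, and Cd83 at 1.53 ± 1.08 and 6.11 ± 4.08 RPKM.

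Ratios of RPKM within a library show how far members moved together. H2-Ab1 over Cd74 stayed between 0.319 and 0.382 in KO and between 0.334 and 0.372 in WT. H2-Eb1 over H2-Aa stayed between 0.755 and 0.817 in KO and between 0.791 and 0.894 in WT. Across the I-A pair the ratio was less even: H2-Aa over H2-Ab1 was 1.88 in the library labelled KO replicate 1 and 2.11 in WT replicate 3, the libraries with the high Malat1 share, against 1.10 to 1.48 in the other 6.

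Ratios of class II genes to Cd207 overlapped between the groups. H2-Aa over Cd207 was 5.03 ± 1.28 in KO and 4.84 ± 1.47 in WT, and H2-Eb1 over Cd207 was 3.93 ± 0.96 in KO and 4.04 ± 1.19 in WT. H2-Ab1 over Cd207 was 3.73 ± 0.80 in KO and 3.07 ± 0.20 in WT, and Cd74 over Cd207 was 11.0 ± 2.46 in KO and 8.82 ± 0.65 in WT. Cd83 over Cd207 was 0.153, 0.163, 0.0571, 0.0922 and 0.11 in KO replicates 1 to 5, against 0.226, 0.148 and 0.444 in WT. Cd86 over Cd207 was 0.232 ± 0.070 in KO and 0.297 ± 0.057 in WT. Csf1r over Cd207, a ratio chosen after its values were seen, was 0.286 to 0.513 in KO and 0.164 to 0.210 in WT, higher in every KO library. The log2 fold change was 0.19 for Csf1r and -0.85 for Cd207. How many other genes would separate the groups in a ratio to Cd207 was not counted. Ptprc, which encodes the leukocyte antigen CD45, was 37.6 ± 11.7 CPM in KO and 33.7 ± 7.02 CPM in WT. Cd207 over Ptprc was 14.5, 6.53, 3.35, 4.51 and 4.24 in KO replicates 1 to 5, against 10.3, 10.2 and 16.2 in WT, so the library labelled KO replicate 1 fell inside the WT range and the other 4 KO libraries below it.

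**Figure D3:**
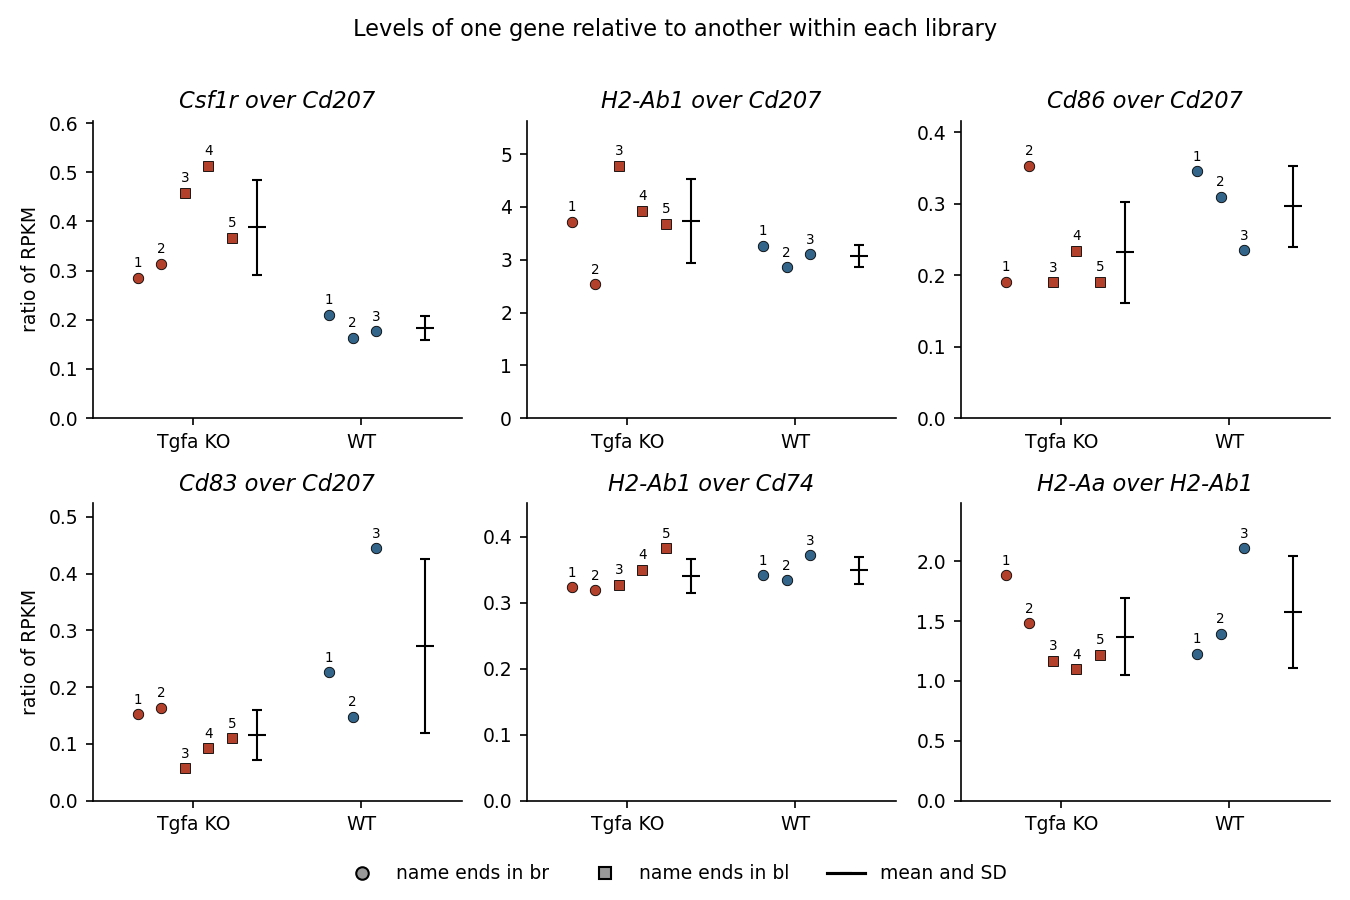
Ratio of the RPKM of 2 genes within each library (vertical axes from 0, Tgfa KO left and WT right, numbers are replicates, circles end in br and squares in bl, bars are mean and SD). H2-Ab1 over Cd74 is nearly level across all 8 libraries. Csf1r over Cd207, a ratio chosen after its values were seen, is higher in every KO library than in every WT library.

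Of the other genes of these pathways, described here by lists chosen with earlier results known, none passed in edgeR. Of 18 further genes of Langerhans and other dendritic cells, 16 were tested, 11 were negative and 5 positive, and the median log2 fold change was -0.04. Their most abundant members were Axl, a receptor tyrosine kinase (-0.26), Cd24a (0.19), Mfge8, a bridge to apoptotic cells (-0.04), and Sirpa, an inhibitory receptor (-0.13), with edgeR adjusted p from 0.931 to 0.991. None of the 16 had groups that did not overlap.

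Of 17 other genes of the class II pathway, 16 were tested, with 11 negative, 5 positive and a median of -0.21. They include Ifi30, a reductase of the endosome (52.8 ± 19.7 CPM in KO and 60.6 ± 6.52 in WT, log2 fold change -0.20), and H2-DMa, a chain of the peptide exchange factor (9.44 ± 2.92 CPM in KO and 11.6 ± 2.74 in WT, log2 fold change -0.29). The promoter factors gave 0.25 for Rfx5, -0.44 for Nfya, 0.52 for Nfyc and -0.24 for Creb1, with edgeR adjusted p from 0.853 to 0.935. None of these genes was called in the fit with library weights either.

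Among 9 further costimulatory and checkpoint ligands, 6 were tested and 3 were negative (median -0.08). Icam1, an adhesion ligand, was -0.42, Cd274, which encodes PD-L1, -0.33, Tnfsf9 -0.38, Cd40 0.18 and Icosl 0.96, with edgeR adjusted p from 0.875 to 0.988. Cd80, the close relative of Cd86, had 0 to 11 counts in KO libraries and 0 to 19 counts in WT libraries, too few for the test. Icosl rose in the fit with library weights (log2 fold change 1.63, limma adjusted p = 0.0476).

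Genes of migration and maturation had a median of -0.63, with 5 of 7 tested members negative. The values of Ccl22, a chemokine of mature dendritic cells, were 35.7 CPM in the library labelled KO replicate 1 and 117 CPM in WT replicate 3, and at most 4.34 CPM in the other 6 libraries (edgeR adjusted p = 0.884). Ccr7, the receptor that leads dendritic cells to lymph nodes, followed the same libraries, at 9.65 and 17.0 CPM, and was at most 2.61 CPM elsewhere. Cxcl16, Relb and Fscn1, an actin bundling protein of mature dendritic cells, were -0.63, -0.22 and 0.41 (edgeR adjusted p from 0.892 to 0.935). Il1b fell in the fit with library weights (-1.59, limma adjusted p = 0.0364), while its value within br was 0.19.

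Growth factor genes split in direction, with 5 positive and 5 negative of 10 tested and a median of -0.05. Il34, the Csf1r ligand made by keratinocytes, was 42.1 ± 21.9 CPM in KO and 46.0 ± 32.6 in WT, with 17.2 CPM in the library labelled KO replicate 1 and 9.69 CPM in WT replicate 3, the 2 lowest values. Csf1 was 20.2 ± 3.96 CPM in KO and 12.7 ± 4.28 in WT (log2 fold change 0.67, edgeR adjusted p = 0.731). Tgfb1, needed for Langerhans cells to stay in the epidermis, was 26.3 ± 2.60 CPM in KO and 33.0 ± 4.61 in WT, with a log2 fold change of -0.33 (edgeR adjusted p = 0.849). Its highest KO value, 29.2 CPM, was just below its lowest WT value, 29.6 CPM, a lack of overlap that 1.75% of all genes shared. Its receptor genes Tgfbr2 and Tgfbr1 were -0.27 and 0.02, and Bmp7 was 0.60 (edgeR adjusted p = 0.683). With library weights Bmp7 rose (0.71, limma adjusted p = 0.0304) and Csf2rb, a shared receptor chain for GM-CSF, fell (-1.53, limma adjusted p = 0.0133), while the value of Csf2rb within br was -0.17. Csf2rb, Il1b, Irf1 and Gbp2 were named for a call in that fit, after their values were seen.

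Interferon gamma, which induces Ciita, was itself too scarce for the test, with a highest level of 2.08 CPM in KO libraries and 0.73 CPM in WT libraries. Of 9 tested genes of its axis, 6 were negative (median -0.18). Jak1, Ifngr1 and Jak2 were -0.18, -0.24 and -0.50, with edgeR adjusted p from 0.836 to 0.935. Cxcl9, a chemokine target, was higher in every KO library, at 1.11 to 4.69 CPM in KO and 0.784 to 1.09 CPM in WT (edgeR adjusted p = 0.9), as were 654 of the 19239 genes tested, and was named after its values were seen. Gbp2 and Irf1, targets of the pathway, fell in the fit with library weights (-1.40 and -1.22, limma adjusted p = 0.0178 and 0.0253), while their values within br were -0.59 and -0.07.

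**Figure D4:**
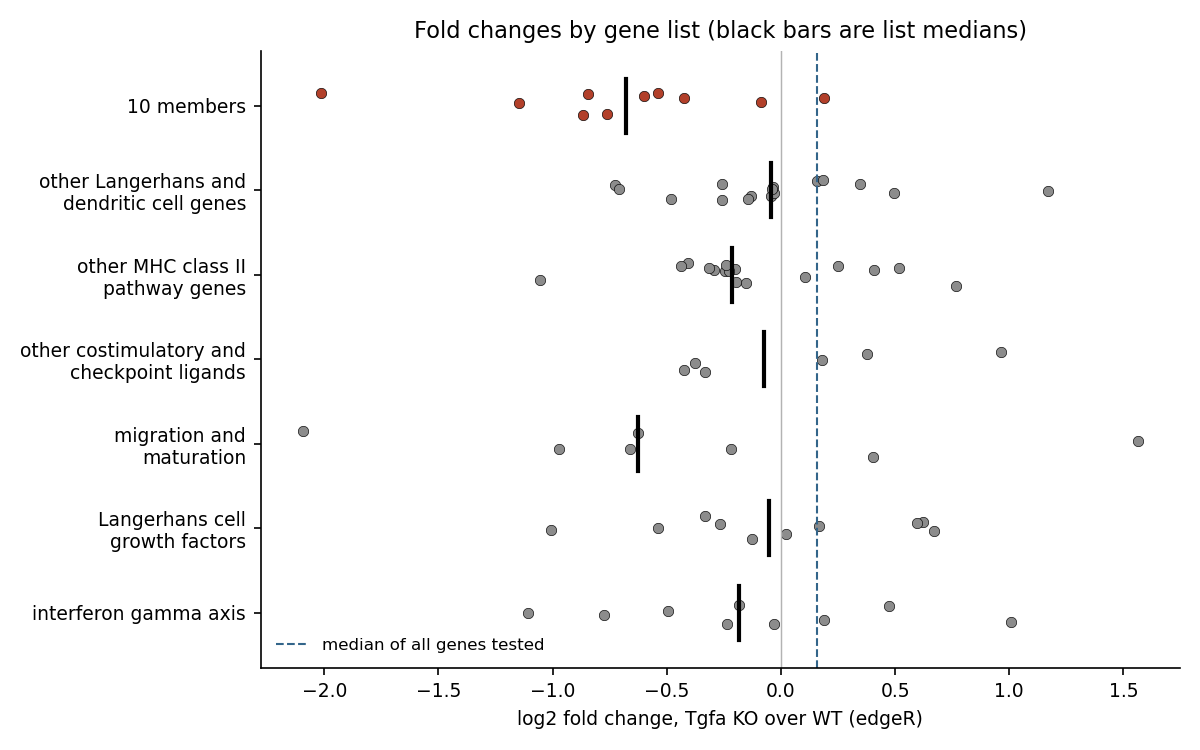
Log2 fold change in edgeR of every tested gene by list, Tgfa KO over WT (horizontal axis), with black bars at list medians and a dashed line at the median of all genes tested, 0.16. The 10 members have a median of -0.68, and the further class II pathway genes one of -0.21.

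Markers of other immune cells were looked at beside these values, some of which, such as macrophages, B cells and dermal dendritic cells, can carry class II. The 11 macrophage and monocyte markers summed to 17.6 to 88.9 CPM in KO and 14.6 to 77.8 CPM in WT, with the highest sums in the libraries labelled KO replicate 1 and WT replicate 3, where Cd68 was 72.4 and 55.6 CPM, and in KO replicate 2. Fcgr1, Cd14, C1qb and C1qc were at 0 in some libraries. The 5 B cell markers summed to 0.285 to 38.9 CPM in KO and 0.728 to 6.25 CPM in WT, with Ms4a1, Cd79a, Cd79b and Pax5 at 0 in some libraries and the highest sum in KO replicate 2. The 8 markers of dermal dendritic cells summed to 8.62 to 58.4 CPM in KO and 14.2 to 20.6 CPM in WT, again highest in KO replicate 2, and Xcr1, Batf3, Clec10a, Cd209a and Mgl2 were at 0 in some libraries. KO replicate 2, with 0.795 RPKM on the receptor genes, also had the highest endothelial, mast cell and fibroblast sums, at 40.3, 27.4 and 74.0 CPM. Other libraries reached at most 8.83, 5.39 and 39.8 CPM. Macrophage, T cell, neutrophil, melanocyte, keratinocyte and Langerhans cell sums were highest in other libraries. The 7 T cell markers summed to 26.8 to 91.2 CPM in KO and 32.4 to 59.7 CPM in WT, with all 7 present throughout. The 5 neutrophil markers summed to 5.78 to 25.9 CPM in KO and 1.57 to 4.38 CPM in WT, higher in every KO library. Cxcr2 made up most of that sum in every KO library but KO replicate 2, at 5.36 CPM or more in KO and 2.11 CPM or less in WT (edgeR adjusted p = 0.33), while S100a8, Csf3r, Ly6g and Retnlg were at 0 in some libraries. Of the 19239 genes tested, 654 had every KO library above every WT library. Among the 2 neutrophil markers tested, 1 was called higher with library weights, as were 653 of all genes tested. The part of any of these cells in the values of the members was not tested.

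Among the genes whose log2 CPM followed Cd207 most closely over the 8 libraries, out of 12578 compared, were Etohd2 (Pearson r = 0.98), Cytip (0.97), Pxn (0.95) and Hmces (0.95). Cd86 ranked 7 and H2-Eb1 12 in that order, with r of 0.94 and 0.92, while Csf1r ranked 1489 and Ciita 2386, with r of 0.51 and 0.41. H2-Ab1 was followed most closely by Cd74 (0.99), Zcchc9 (0.96), H2-Eb1 (0.95), H2-Aa (0.94) and Taf3 (0.94), and Ciita had r of 0.42 with it. These are descriptions over libraries that share genotype, name ending and quality, and no test was made.

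Cd207 lies 2.52 Mb from Tgfa on chromosome 6, and the genes around both were therefore compared. Between the 2 genes lie 85 annotated genes, of which 33 were tested, with 23 positive, 10 negative and a median log2 fold change of 0.26. Over all genes tested, 38.1% were negative and the median was 0.16. None of the 33 was called in edgeR, and at an unadjusted p under 0.05, 4 were higher and 0 lower, where 4.44% and 1.85% of all genes were. Within 1 Mb of Cd207, itself left out, 44 genes were tested, with 27 positive, 17 negative and a median of 0.12, and 2 were higher and 1 lower at an unadjusted p under 0.05. Within 1 Mb of Tgfa, itself left out, 49 were tested, with 37 positive, 12 negative and a median of 0.31, and 5 were higher and 0 lower. None in either window was called in edgeR. With library weights, 1 gene was called higher and 2 lower around Cd207, 4 higher and 0 lower around Tgfa, and 2 higher and 1 lower between them. Of all 19239 genes tested, 653 were called higher and 590 lower in that fit. The tested genes in the interval nearest to Cd207 and to Tgfa were Atp6v1b1 (0.69, and -0.98 with library weights) and Add2 (0.72, and 0.59 with library weights).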

How the data were processed

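The authors deposited raw read counts per gene for each of the 8 libraries. The submitters' processing notes list Trimmomatic 0.36, STAR 2.5.2b and Subread 1.5.2 with featureCounts, and name both GRCh38 and GRCm38. Identifiers are those of mouse Ensembl genes per the file headers, and 49056 of 49315 matched GENCODE M21 on GRCm38. Whether counting used strand or reads with several hits is not given in the sources.

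The main test was edgeR 4.0.16 under R 4.3.3 (quasi-likelihood, robust, TMM, filterByExpr, genotype alone), with Benjamini-Hochberg adjustment over 19239 genes. DESeq2 1.42.0 and limma 3.58.1 served as alternatives. CPM and RPKM were computed from the counts with TMM-scaled library sizes. The permutation test was exact and two-sided, over 56 splits of log2 CPM (prior count 2). The fits were also run on simulated counts with known folds and no differences in library quality or name ending. That run therefore does not show how such differences act on the calls. Replicates were numbered in order of deposition. Separate animals are not stated in the labels, so every p-value reflects only how these samples vary, which may be technical. No 2 libraries of the same group agreed within sampling noise (chi-square per gene at least 14.98).

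The members and lists were chosen with earlier results of these data known. The text names all members and, per list, the 4 tested genes with the highest mean CPM, plus Il34, Csf1, Ccr7, Cd80, Cd40, Rfx5, H2-DMa and Ifng. Genes closest in pattern were sought among tested genes with a mean of at least 2 CPM, predicted genes left out. Not every gene chosen this way is reported here. Genes and ratios named outside this rule are marked, or, for Ptprc and Tgfb1, were chosen after their values were seen.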

Additional observations from a re-analysis of the deposited data

Results flagged for a closer look

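H2-Aa at 253.8 CPM and H2-Eb1 at 121.1 CPM in the library labelled KO replicate 1 stood apart from the other 4 KO libraries, at 51.9 to 103 CPM and 24.9 to 52.5 CPM. The gap to the nearest library was 0.749 and 0.713 of the range, above the critical value of 0.71 for 5 samples, a level that chance passes in about 1 of 20 groups. All 10 members were checked this way, each at its most extreme KO library, and no other member passed. H2-Eb1 over H2-Aa stayed between 0.755 and 0.817 in KO, so these 2 results are not independent. The same library had a Tgfa level above every WT library and a Malat1 share of 4.88%. The part of either in these values was not tested.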

How the results depend on the processing

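All members but Ciita and Csf1r kept a negative log2 fold change in the 20 alternatives and in 8 more added after seeing the data, which left out a library each with library weights in use. In edgeR, 1 gene of all tested was called. This count was 137 in DESeq2, 0 in limma voom, 1243 with library weights, 0 with RLE size factors, 0 with upper quartile factors, 9 without a filter on low counts, 0 with at least 10 counts in every library, 0 among libraries ending in br, 21 with KO libraries ending in bl against WT, and 1883 without KO replicates 1 and 2 and WT replicate 3. Leaving out a library gave 0 to 1 in edgeR. With library weights it gave 1900, 1290, 222, 160 and 1416 when KO replicates 1 to 5 were dropped in turn, and 638, 2 and 1349 when WT replicates 1 to 3 were. An adjusted p under 0.1 gave 1 gene and 0 members. The number of members called was 0 in edgeR, 4 with library weights, 3 without the 3 libraries just named, and 0 to 6 over left-out libraries. Ciita turned positive with library weights (0.043), without the 3 libraries (0.026), without WT replicate 1 (0.0075), WT replicate 3 (0.07) or KO replicate 5 (0.10), and with weights without WT replicate 3 (0.0001), KO replicate 1 (0.11) or KO replicate 5 (0.42). Csf1r turned negative without WT replicate 2 (-0.10), and with weights without WT replicate 2 (-0.28), KO replicate 3 (-0.012) or KO replicate 4 (-0.37). Over left-out libraries in edgeR, Ciita ran from -0.56 to 0.10 and Csf1r from -0.10 to 0.36. The cause was not tested. The median of all genes was 0.52 in DESeq2 and -0.01 in limma voom, against 0.16 in edgeR. No paired analysis was possible because the labels give no replicate numbers shared between the groups. The lowest count behind a member was 16, for Cd83 in KO replicate 3.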
